A study of Streblospio benedicti with 24 samples.

Results

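The transcripts described here are the 6 gene copies annotated as putative Notch in the annelid *Streblospio benedicti* (Sbene_G06517, Sbene_G09676, Sbene_G09677, Sbene_G13608, Sbene_G15020 and Sbene_G18208) and frizzled-5 (Sbene_G05398), 7 of the 26216 genes in the count files. They were taken by identifier, as the genes that carry these names in the published account of the oocytes. Their counts were read in all 24 oocyte libraries. Each library was made from the pooled, unfertilized oocytes of 1 female reared in isolation. PP oocytes (7 libraries) came from planktotrophic females of a Bayonne, New Jersey population, which make small eggs, and LL oocytes (7 libraries) from lecithotrophic females of a Long Beach, California population, which make large eggs. PL and LP oocytes (5 libraries each) came from F1 females of the 2 reciprocal laboratory crosses, with the maternal allele written first, so both crosses carried 1 P and 1 L haplotype and differed in which parent gave it. Animals were reared in the laboratory, no ages are given, and each morph is represented by a single population.

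Notch is a transmembrane receptor that is cut after it binds a Delta or Serrate/Jagged ligand on a neighbouring cell, and the released intracellular part enters the nucleus and acts with a DNA-binding partner on target genes. Frizzled-5 is a member of the seven-pass receptor family that binds secreted Wnt ligands, and Wnt signalling through frizzled receptors is a known regulator of axis formation in animal embryos. Oocytes hold mRNA loaded by the mother, which is translated before the embryo's own genome becomes active. The files pair no identifier with a product or sequence, so ligands, cleavage enzymes and targets of either pathway, and markers of oocytes or of other cells, could not be picked out, and the oocyte label was not checked against markers.

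Between 7489256 and 43609048 reads were counted on genes per library (median 19499123). The label of 2 tech replicates is on all 10 F1 libraries and on 3 parental ones (PP replicate 7, LL replicate 6, LL replicate 7), and 11 libraries lack it. What the label marks is not stated. According to the study's methods the F1 libraries were sequenced apart from the parental ones, so the sequencing run and the difference between F1 and parental oocytes cannot be told apart. Reads were aligned to the genome of the planktotrophic morph. The share of reads that did not align had a median of 22.2% for PP, 20.4% for PL, 27.0% for LP and 37.4% for LL, and its part in the members' values was not tested. Reads that fell equally well in several places (0.82% to 2.33% per library) were not counted, and the files do not show how alike the copies are, so the division of reads among them is uncertain. Values are read counts normalized by the median of ratios over the 24 libraries. They are not divided by gene length and so are compared between groups, not between genes. In pools of oocytes, fewer oocytes with a transcript and less of it per oocyte cannot be told apart.

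Sbene_G09677 was the copy with the most reads. It had a count in every library, from 62 to 4869 reads. In PP oocytes the lowest, median and highest normalized counts were 46, 190 and 522. The PL libraries had 326, 513, 212, 192 and 425, in order of replicate number. The LP libraries had 501, 800, 756, 412 and 661. LL values ran from 222 to 3610 with a median of 360. The 5 LP libraries were all above the LL median and 3 of them were above the highest PP library, while no PL library was. The LL group was uneven, because replicates 2, 3 and 4 had 2570, 3610 and 917 and the other 4 lay between 222 and 360. The mean was lowest in PP (242 ± 190, SD, n = 7), then PL (334 ± 137, n = 5), LP (626 ± 166, n = 5) and LL (1200 ± 1350, n = 7), and each neighbouring pair in that order overlapped. Without LL replicate 3 the LL mean was 795.

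Sbene_G15020 was the other copy counted in all 24 libraries. Its PP values had a lowest, median and highest of 5.14, 14.9 and 77.3. PL replicates 1 to 5 gave 100, 70.9, 34, 36.4 and 79.1. The LP values were 28, 13.9, 18.6, 238 and 187. In LL the range was 45.7 to 201, with a median of 146. The LP cross was split. Replicates 1 to 3, whose sample IDs share a letter, were at 13.9 to 28, and replicates 4 and 5, each with a letter of its own, were at 187 and 238. The meaning of the letter is not stated. LP replicates 4 and 5 were also the LP libraries with the fewest genes counted (10442 and 10978, against 12331 to 14294 in the other 3), and the part of this in the split was not tested. Group means rose in the order PP (27.3 ± 26.1), PL (64.1 ± 28.4), LP (97.1 ± 107) and LL (132 ± 57.1), with neighbouring groups overlapping. Without LP replicate 4 the LP mean was 61.8, below that of PL.

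Sbene_G09676, whose identifier precedes that of Sbene_G09677, was near the limit of detection in PP. PP values ran from 0 to 7.86 with a median of 0, and 4 of the 7 libraries had no read. The 5 PL libraries had 10.5, 4.17, 11.3, 16.2 and 12.3. The LP libraries had 6.66, 16.2, 42.2, 2.3 and 32.9. LL values ran from 1.8 to 90.1, with a median of 17.5. Every F1 library had at least 1 read of this copy, and 4 PL and 3 LP libraries lay above the highest PP library. The means increased from PP (1.71 ± 2.9) to PL (10.9 ± 4.33), LP (20.1 ± 17.1) and LL (31.3 ± 34), again with overlap between neighbours, and the PP mean was 0.683 without PP replicate 3.

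Sbene_G06517 had no read in any of the 7 PP libraries. In PL it was at 0, 6.26, 2.12, 6.06 and 0.613, which stands for 10 reads in all. In LP it was at 2.66, 6.95, 10.1, 0 and 0, or 20 reads in all. In LL the values ran from 0 to 52.5 (median 21.7), with replicates 4 and 5 at 0. Against a floor of 3 reads over the PP group, the level with the reads of a group pooled was 7.22-fold higher in PL, 13.6-fold higher in LP and 75.7-fold higher in LL. By the mean of the libraries the ratios to the floor were 9.98 in PL and 13.1 in LP. The floor allows for the counting of few reads in PP only. It leaves out the spread among libraries of the other groups, so these ratios are not lower bounds of the difference. All 10 F1 libraries lay below the LL median. Their means, 3.01 ± 2.98 in PL and 3.95 ± 4.48 in LP, did not differ beyond their spread, and LP was at 2.4, below PL, without LP replicate 3.

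Sbene_G13608 was the rarest copy, with 131 reads over the 24 libraries, and did not pass the filter on low counts. The PP range was 0 to 4.83 with a median of 1.86. PL had 8.77, 2.09, 0.708, 0 and 4.91, and LP had 0, 2.32, 3.38, 0.768 and 0. LL ranged from 0 to 30.5 with a median of 7.5. By mean the order was LP (1.29 ± 1.5), PP (2.09 ± 1.83), PL (3.29 ± 3.59) and LL (11.8 ± 11.9), and all 4 groups overlapped. PL was below PP, at 1.92, without PL replicate 1, and LP was at 0.771 without LP replicate 3.

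Sbene_G18208 was the copy with its highest group mean in PP. The PP libraries ran from 0 to 126 with a median of 79, and they fell apart into replicates 2, 3, 5 and 6 at 79 to 126 and replicates 1, 4 and 7 at 0 to 2.22. The PL libraries had 3.51, 215, 0.708, 2.02 and 6.75, so that replicate 2 stood alone. The LP libraries had 43.9, 3.48, 45.6, 0 and 1.32. The LL libraries ran from 0 to 10.8 with a median of 4.83. PP replicates 5 and 6, both in the high set, have sample IDs with a common stem, and whether they are related females is not stated. Means fell from PP (58 ± 55.4) to PL (45.6 ± 94.7), LP (18.9 ± 23.7) and LL (4.44 ± 4.26), and the median was 79 in PP against 3.48 to 4.83 in the other 3 groups. Without PL replicate 2 the PL mean was 3.25, the lowest of the 4 groups, and without LP replicate 3 the LP mean was 12.2.

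Frizzled-5 was scarce in PP oocytes. The PP values ran from 0 to 7.4 with a median of 0, and 4 of 7 libraries had no read. The PL libraries had 28.1, 18.8, 110, 2.02 and 19.6. The LP libraries had 25.3, 29, 8.45, 0 and 14.5. LL values ran from 1.21 to 95.9 with a median of 12.6. In each cross 4 of 5 libraries were above the highest PP library. The LL libraries labelled as 2 tech replicates were at 1.21 and 1.67, at the low end of the 1.39 to 95.9 of the other 5, whereas the F1 libraries all carry that label. The order of the means was PP (2.25 ± 3.29), LP (15.4 ± 11.9), LL (30.4 ± 37.7) and PL (35.8 ± 42.8), and neighbours in it overlapped. The place of PL rested on replicate 3, without which its mean was 17.1, below that of LL. The LL mean was 19.5 without LL replicate 1, and the PP mean 1.39 without PP replicate 6.

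**Figure D1:**
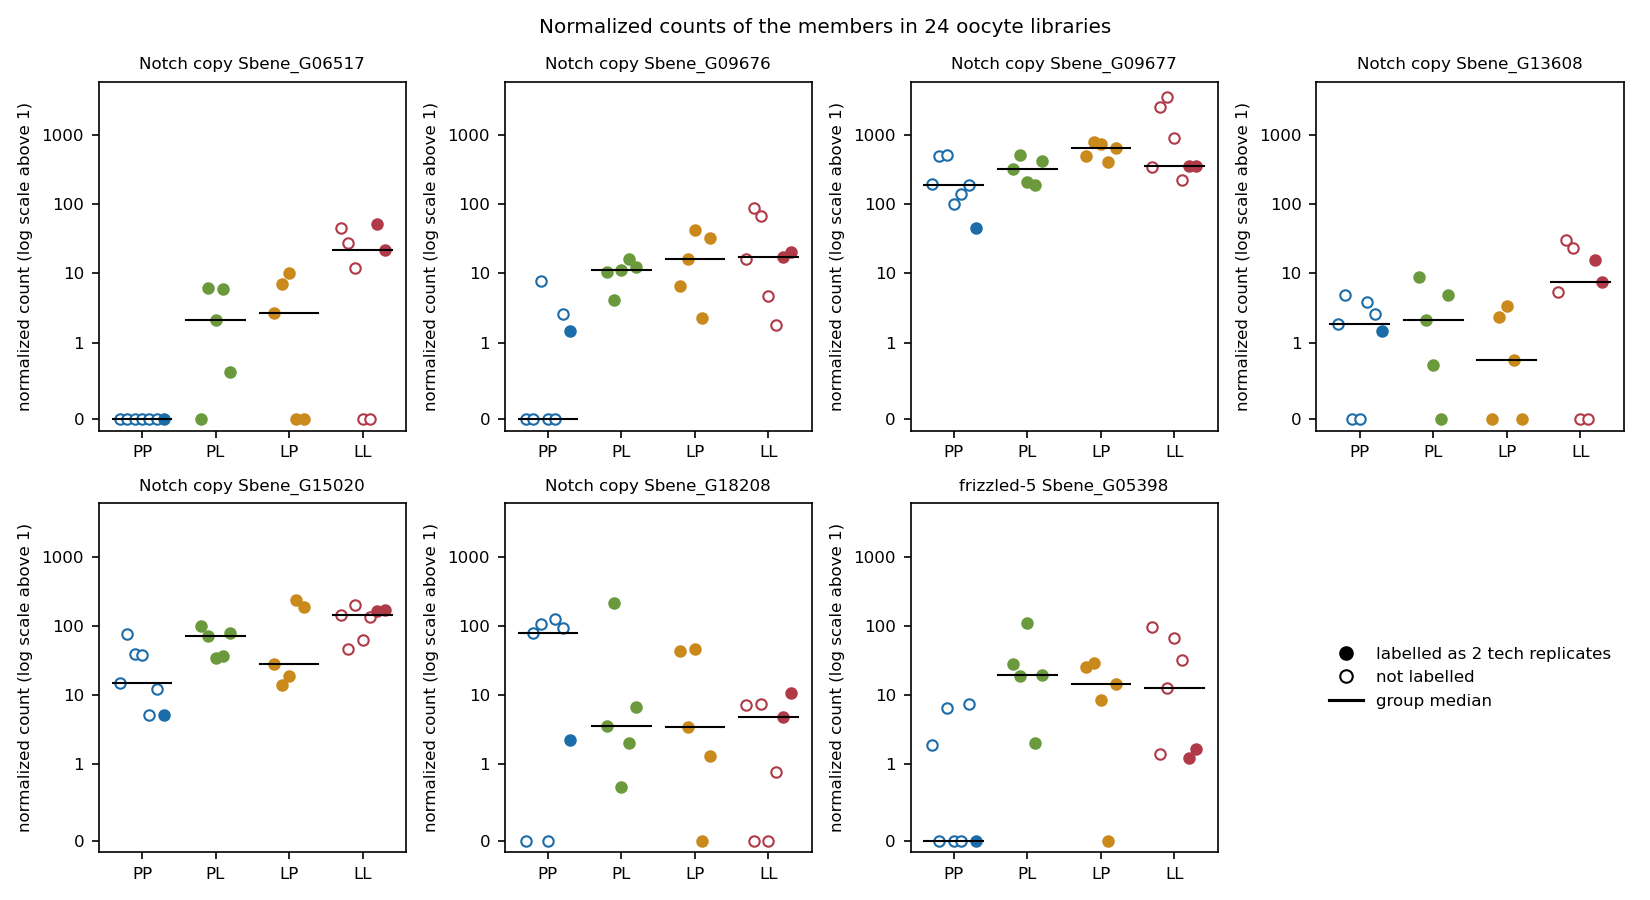
Normalized counts (median of ratios, linear from 0 to 1 and log scale above 1) of the 6 Notch copies and frizzled-5 in each library of PP, PL, LP and LL oocytes. Each point is 1 library, filled where it is labelled as 2 tech replicates, and bars are group medians. Sbene_G06517 is at 0 in all 7 PP libraries, LP splits at 13.9 to 28 and 187 to 238 for Sbene_G15020, and PL replicate 2 is at 215 for Sbene_G18208.

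The reciprocal crosses were compared to ask whether the level of each transcript in the oocytes of an F1 female depends on which parent gave which haplotype. Genes were tested with the quasi-likelihood test of edgeR after TMM normalization, in a fit of all 24 libraries, with Benjamini-Hochberg adjustment over the 10782 genes that passed the filter. A gene was called where the adjusted p was under 0.1 and the change exceeded 1.5-fold, which are the thresholds used in the study for F1 oocytes. PL and LP oocytes differed at 2 of the 10782 genes (0.0185%), and at 0 of the 6 members tested. No member had an unadjusted p under 0.05 by edgeR in this fit (7.38% of all genes did), and by DESeq2 0 of 7 members were called (0.861% of all genes were) and 0 had an unadjusted p under 0.05. The median log2 fold change of PL over LP was -0.52 over the 6 members and 0.05 over all genes tested.

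The interval was narrowest for Sbene_G09677, with a log2 fold change of PL over LP of -0.89 (SE 0.67, 95% interval -2.27 to 0.50, edgeR adjusted p = 0.783). In an edgeR fit of the 10 F1 libraries alone it was at -0.87, with an unadjusted p of 0.0209 and an adjusted p of 0.565. Both fits treat the F1 libraries as independent, although LP replicates 1 to 3 have a sample-ID letter in common. So do PL replicates 3 to 5. Adding up the counts of F1 libraries with the same letter gave -0.63 for this copy (edgeR unadjusted p = 0.494). The other Notch copies had wider intervals. Sbene_G15020 was at -0.57 (-2.11 to 0.98, adjusted p = 0.867), and without LP replicate 4 it was at 0.09. Sbene_G09676 was at -0.85 (-3.08 to 1.38, adjusted p = 0.865). Sbene_G06517 was at -0.47 (-3.48 to 2.53, adjusted p = 0.950), on 30 F1 reads, and without LP replicate 3 it was at 0.28. Sbene_G18208 was at 1.22 (-2.01 to 4.44, adjusted p = 0.865), and without PL replicate 2 the direction turned, to -2.47. For frizzled-5 the value was 1.27 (SE 1.30, -1.42 to 3.96, adjusted p = 0.832), and without PL replicate 3 it was 0.19. Every one of these intervals includes 0 and also changes larger than 1.5-fold, so no difference between the crosses was detected for a member. A missed threshold does not show that the crosses are alike.

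The F1 crosses were then set against each parental morph. These contrasts share the PP or LL libraries from which the study named the genes, and share them with one another. Genes named for a difference between PP and LL in these libraries are prone to differ from F1 oocytes too. The counts and medians of members beside all genes, against PP and against LL, are therefore a description. No excess over all genes is read from them. Against PP, the members called were 0 of 6 for PL (background 2.26% of genes) and 0 of 6 for LP (background 1.74%). Unadjusted p under 0.05 was reached by 3 of 6 members in PL and 5 of 6 in LP, beside 14.7% and 12.1% of all genes. DESeq2 called 2 of 7 in each, beside 6.27% of genes in PL and 4.31% in LP. Log2 fold changes over PP had a median of 1.88 in PL and 2.20 in LP over the members tested, against 0.01 and -0.03 over all genes.

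Frizzled-5 had a log2 fold change over PP of 3.82 in PL (SE 1.26, 95% interval 1.23 to 6.41, edgeR adjusted p = 0.137) and of 2.54 in LP (SE 1.22, 0.03 to 5.06, adjusted p = 0.406). Without PL replicate 3 the value in PL was 2.74 (adjusted p = 0.425). DESeq2 called it in PL (adjusted p = 0.0321). DESeq2 also called Sbene_G06517 in PL (adjusted p = 0.0977) and in LP (adjusted p = 0.0623), and Sbene_G09676 in LP (adjusted p = 0.0229). Among the copies at or near 0 in PP, Sbene_G09676 had 2.48 in PL (SE 1.02, adjusted p = 0.244) and 3.32 in LP (SE 1.03, adjusted p = 0.146). PP replicate 3, at 7.86, is the highest PP library, and without it Sbene_G09676 passed the threshold in PL (3.56, edgeR adjusted p = 0.0922) and in LP (4.41, adjusted p = 0.0559). Over all genes, 351 of 10707 passed in PL and 179 of 10707 in LP without that library. Sbene_G06517 had an edgeR adjusted p of 0.141 in PL and 0.126 in LP. For its size only the ratios to the floor above are given, since a fitted change against 0 reads depends on the prior count. Sbene_G06517 passed in LP without LL replicate 4 (edgeR adjusted p = 0.0896) or LL replicate 5 (adjusted p = 0.0913), beside 212 of 10724 and 190 of 10726 genes. Among the copies found in every library, Sbene_G15020 had 1.29 in PL (SE 0.69, adjusted p = 0.393) and 1.85 in LP (SE 0.69, adjusted p = 0.246). Sbene_G09677 had 0.49 in PL (SE 0.61, adjusted p = 0.754) and 1.38 in LP (SE 0.61, adjusted p = 0.358). Sbene_G18208, the copy with its highest mean in PP, had -0.39 in PL (adjusted p = 0.920) and -1.61 in LP (adjusted p = 0.748). With the label of 2 tech replicates as a covariate, no member was called against PP by edgeR, but some values grew. Frizzled-5 was then at 8.37 in PL (edgeR adjusted p = 0.212) and 7.09 in LP (adjusted p = 0.286), and Sbene_G09677 at 3.47 in LP (adjusted p = 0.156). PP replicate 7, the one PP library with the label, had 0 for frizzled-5 and 46 for Sbene_G09677, with no PP library lower in either.

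Against LL, the members called were 0 of 6 for PL (background 0.900%) and 0 of 6 for LP (background 1.16%). Unadjusted p under 0.05 was reached by 2 of 6 members in PL and 0 of 6 in LP, beside 12.5% and 12.3% of all genes. DESeq2 called 1 of 7 in PL and 0 of 7 in LP, beside 3.80% of genes in PL and 4.08% in LP. The medians over the members were -1.24 in PL and -0.77 in LP, against 0.02 and -0.01 over all genes. In PL the member called by DESeq2 was Sbene_G09677 (adjusted p = 0.0871), which had a log2 fold change of -1.81 in edgeR (SE 0.65, 95% interval -3.16 to -0.47, adjusted p = 0.246). With the label as a covariate that value was 0.03. The 2 labelled LL libraries were at 354 and 360, inside the PL range of 192 to 513. In LP the same copy had -0.93 (SE 0.63, adjusted p = 0.571). Sbene_G18208 had 3.29 in PL (SE 1.5, adjusted p = 0.370), which fell to -0.40 without PL replicate 2, and 2.07 in LP (SE 1.46, adjusted p = 0.588). Sbene_G06517 had -2.94 in PL (SE 1.44, adjusted p = 0.414) and -2.47 in LP (SE 1.37, adjusted p = 0.484). Frizzled-5 had 0.31 in PL (SE 1.18, adjusted p = 0.943) and -0.96 in LP (SE 1.22, adjusted p = 0.815). The remaining copies, Sbene_G09676 and Sbene_G15020, lay between -1.46 and -0.46 in both crosses.

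**Figure D2:**
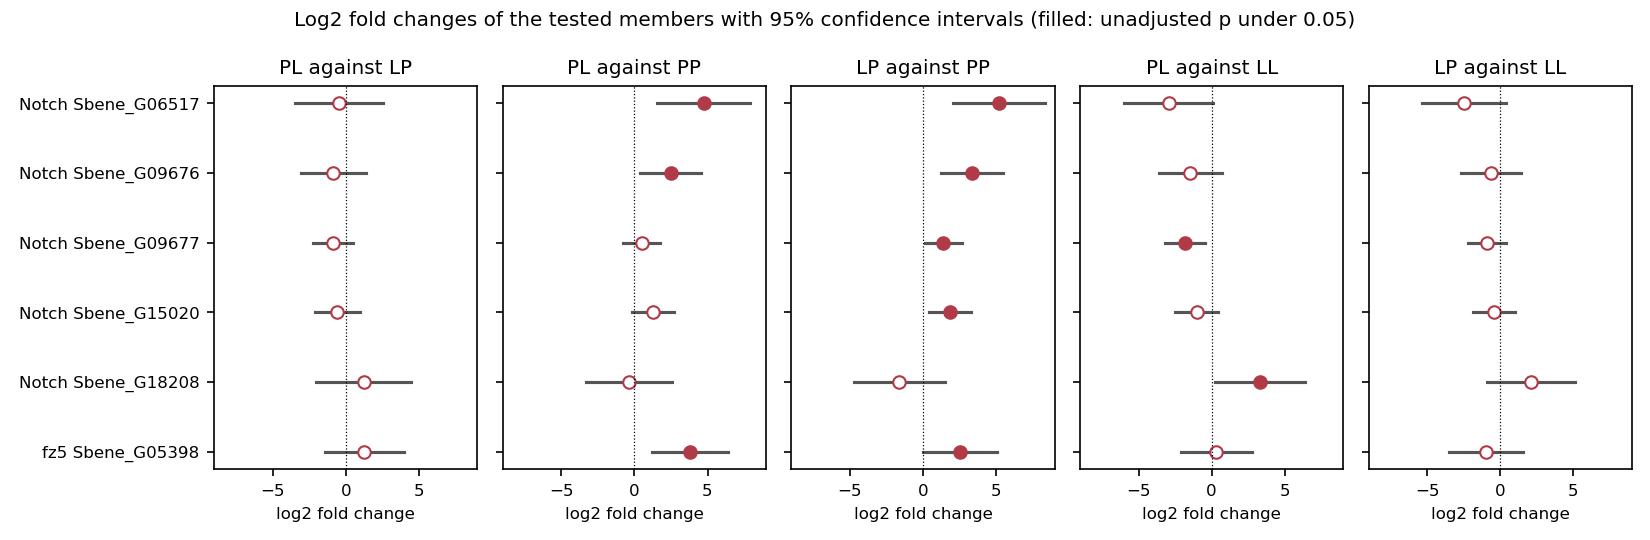
Log2 fold changes (x axis, points) with 95% confidence intervals (lines) from the edgeR fit of 24 libraries, for the 5 Notch copies tested and frizzled-5 (fz5), in the 5 contrasts with an F1 cross. Filled points have an unadjusted p under 0.05 and none passed the adjusted threshold. All 6 intervals include 0 for PL against LP, and frizzled-5 lies at 3.82 for PL against PP. The points of Sbene_G06517 against PP, which had 0 reads, depend on the prior count and are not a measured size.

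The study named these genes among those that differ between PP and LL oocytes, so that contrast is given as a description and nothing is read from it. In the same fit 4 of the 6 members tested passed (adjusted p up to 0.05, change over 1.5-fold), namely Sbene_G06517, Sbene_G09676, Sbene_G09677 and Sbene_G15020, all lower in PP, and 5.59% of all genes tested did. Sbene_G18208 was higher in PP (log2 fold change of PP over LL 3.68, SE 1.46) and frizzled-5 lower (-3.51, SE 1.20), and neither passed by edgeR. DESeq2 called both, and 6 of the 7 members in all, beside 8.80% of genes. For each of the 7 members the PP and LL values overlapped.

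The copies were compared with one another within libraries by the share of the Notch reads that fell on each. The share does not depend on the total of a library, but it does depend on the length of each copy, so it describes how reads divided and not how many transcripts each copy gave. Over the 6 copies together, normalized counts were 331 ± 244 for PP (SD, n = 7), 460 ± 230 for PL (n = 5), 767 ± 140 for LP (n = 5) and 1400 ± 1380 for LL (n = 7). Sbene_G09677 took more reads than the other 5 copies together in all 24 libraries, with shares from 50.9% in PP replicate 5 to 94.9% in LP replicate 2. Its mean share was 73.5% for PP, 74.7% for PL, 81.0% for LP and 74.2% for LL.

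The second place was held by different copies in different clutches. In PP replicates 2, 3, 5 and 6, Sbene_G18208 took 12%, 15.8%, 45.8% and 30.7% of the Notch reads, and in the other 3 PP libraries it took at most 3.95%. There, in PP replicates 1, 4 and 7, Sbene_G15020 was second with 6.94%, 26.8% and 9.21%. In LL, Sbene_G18208 took at most 1.84%. In LL replicates 1, 5, 6 and 7, Sbene_G15020 took 25.9%, 37.8%, 27.1% and 28.7%, and in LL replicates 2, 3 and 4 it took 1.65%, 5.12% and 6.41%. The LL libraries thus fell into 2 sets without values between them, with Sbene_G09677 at 92.0% to 93.1% in replicates 2, 3 and 4 and at 58.1% to 61.4% in the other 4. Both libraries labelled as 2 tech replicates were in the second set. Among the crosses, PL replicate 2 was the F1 library with the largest share of Sbene_G18208 (26.5%), and LP replicates 4 and 5 had the larger LP shares of Sbene_G15020 (36.5% and 21.2%, against at most 4.81% in the other 3).

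The shares of PL and LP were compared with an exact two-sided permutation test over all divisions of the 10 libraries, where the smallest possible p is 0.00794. The test treats the 10 libraries as independent. LP replicates 1 to 3 share a letter in their sample IDs, as do PL replicates 3 to 5, and what the letter marks is not stated. None of the 6 copies differed, with exact p from 0.222 to 0.865 (6 comparisons, adjusted p = 0.865 for Sbene_G13608, the copy with the smallest p). Sbene_G09677 took 74.7% ± 7.29 in PL and 81.0% ± 12.3 in LP, and Sbene_G15020 took 14.7% ± 4.89 and 13.2% ± 15.3. Sbene_G18208 took 5.92% ± 11.5 in PL and 2.66% ± 3.49 in LP, and the difference turned to the other direction without PL replicate 2. Sbene_G13608 took 0.682% ± 0.789 in PL and 0.156% ± 0.171 in LP. Adding 1 read to each copy took its exact p to 0.00794 (adjusted p = 0.0476). A library held 125 to 862 Notch reads in PL and 437 to 1037 in LP, ranges that overlap. An added read raises a share more where Notch reads are few. PL replicate 4, with 125 Notch reads, had 0 of Sbene_G13608, and LP replicate 3, with 1037, had 4. The copy had 15 reads in PL and 7 in LP in all. The part of depth in that p was not tested, and no difference between the crosses is read from it.

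**Figure D3:**
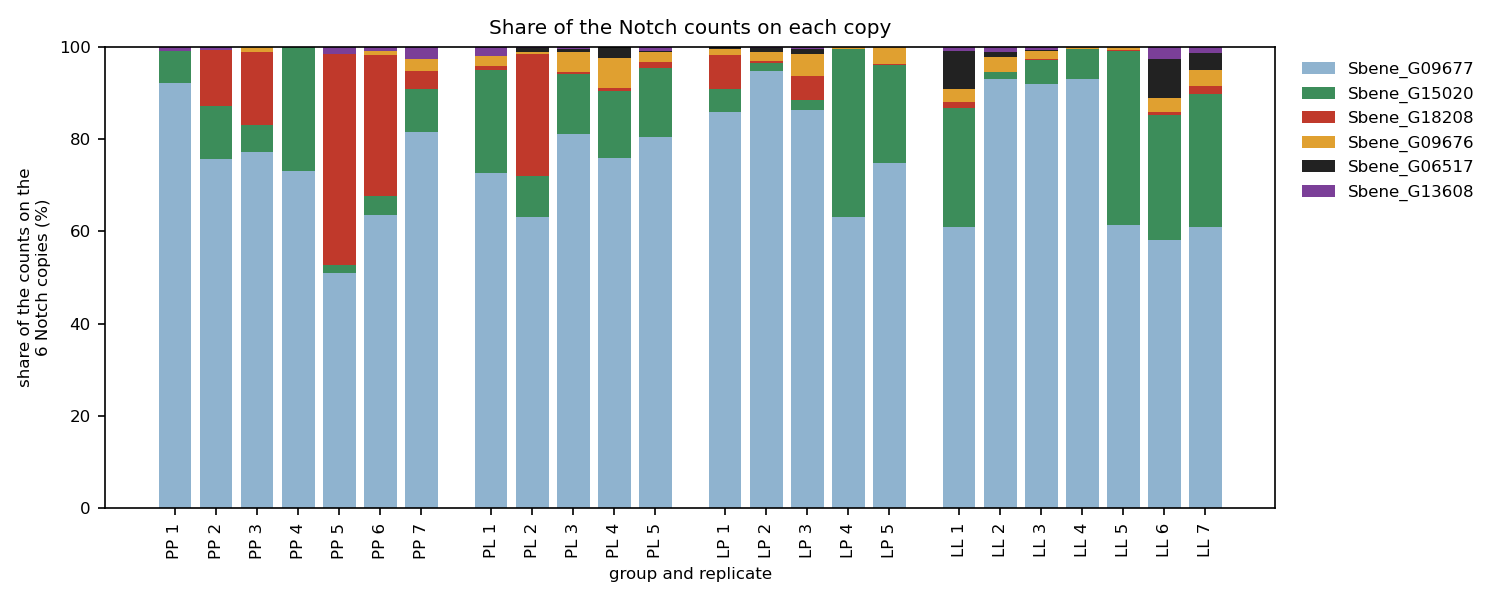
Share of the reads on the 6 Notch copies (y axis, %) that each copy took in each library (x axis, group and replicate), stacked to 100%. Sbene_G09677 holds 50.9% to 94.9% in every library. The second largest part is Sbene_G18208 in PP replicates 2, 3, 5 and 6, PL replicate 2 and LP replicates 1 and 3. It is Sbene_G09676 in LP replicate 2 and LL replicate 2, and Sbene_G15020 in every other library.

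Co-variation between clutches was examined within PP, within LL and over the 10 F1 libraries centred on their cross, on the log2 CPM scale, for pairs in which each gene was counted in all but at most 2 libraries. This gave 37 relations, 6 in PP, 21 in LL and 10 in F1. F1 libraries that share a letter in their sample IDs were treated as independent here too. By exact permutation in PP and LL and 100000 permutations in F1, 3 had an unadjusted p under 0.05 for Pearson's r and 0 had an adjusted p under 0.05 (smallest 0.117). The r values were positive for 22 and negative for 15, with a median of 0.0844, so relations of both signs were found.

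The closest pair was Sbene_G09676 and Sbene_G13608 in LL, with r = 0.949 (exact permutation p = 0.00317, adjusted 0.117, n = 7) and rho = 0.955 (exact permutation p = 0.00397, adjusted 0.132). Without the 2 libraries farthest from the median of Sbene_G09676, r was 0.906. Both copies were highest in LL replicates 2 and 3 and lowest in replicates 4 and 5, where Sbene_G13608 had no read. The next was Sbene_G15020 with Sbene_G18208 in LL, with r = 0.858 (exact permutation p = 0.00635, adjusted 0.117, n = 7) and rho = 0.919 (exact permutation p = 0.00714, adjusted 0.132). Without the 2 farthest libraries r was 0.586, and Sbene_G18208 had at most 13 reads in any LL library. The same pair had r = 0.0786 in PP (exact permutation p = 0.859, adjusted 0.926, n = 7) and r = -0.340 in F1 (permutation p = 0.333, adjusted 0.760, n = 10), and the difference between groups was not tested. Sbene_G06517 and Sbene_G13608 in LL had r = 0.793 (exact permutation p = 0.0452, adjusted 0.466, n = 7) and rho = 0.527 (exact permutation p = 0.231, adjusted 0.834), and r was -0.400 without the 2 farthest libraries, so that relation rests on LL replicates in which the copies were not detected.

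For the neighbouring identifiers Sbene_G09676 and Sbene_G09677, the F1 libraries gave r = 0.227 (permutation p = 0.527, adjusted 0.850, n = 10) and rho = 0.115 (permutation p = 0.757, adjusted 0.941), and r = -0.260 without the 2 farthest libraries. In LL the same pair had r = 0.748 (exact permutation p = 0.0629, adjusted 0.466, n = 7) and rho = 0.75 (exact permutation p = 0.0663, adjusted 0.613), and r = 0.522 without the 2 farthest libraries. The difference between LL and F1 was not tested. In the F1 libraries Sbene_G09677 and Sbene_G18208 had r = 0.598 (permutation p = 0.0685, adjusted 0.466, n = 10) and rho = 0.709 (permutation p = 0.0263, adjusted 0.324). Frizzled-5 could be paired only in LL and F1. Its r with the Notch copies was from -0.693 to -0.0125 in LL and from -0.422 to 0.311 in F1, with no adjusted p under 0.05.

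**Figure D4:**
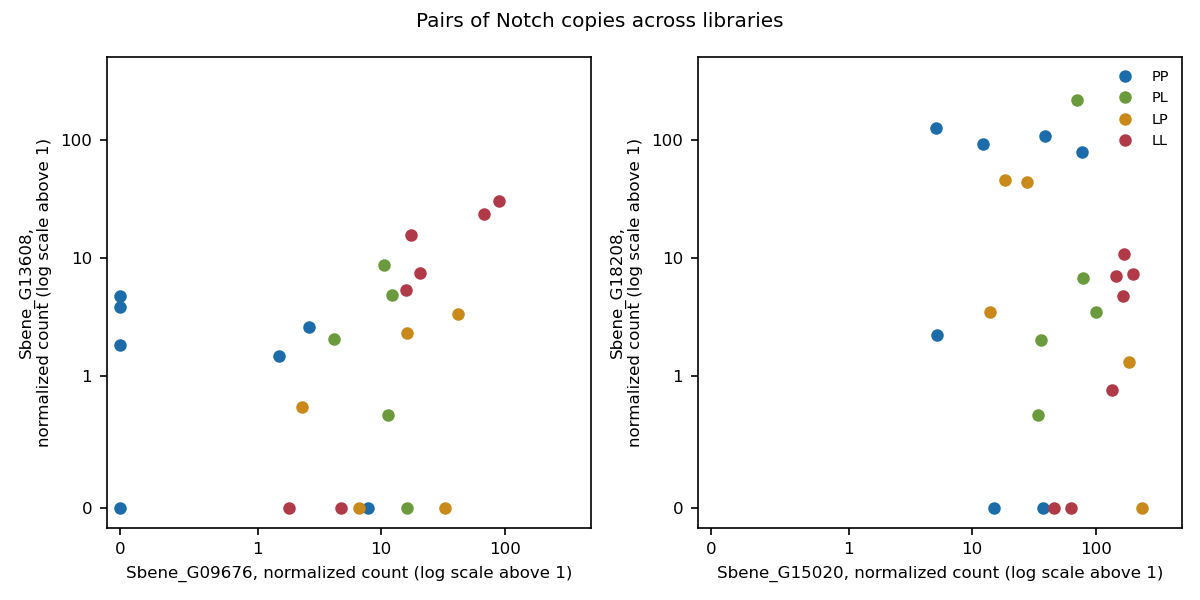
Normalized counts (linear from 0 to 1 and log scale above 1) of the 2 pairs of Notch copies with the highest r in LL oocytes, with 1 point per library coloured by group. In LL the points of Sbene_G09676 and Sbene_G13608 rise together (r = 0.949 on log2 CPM), and those of Sbene_G15020 and Sbene_G18208 do so more loosely (r = 0.858).

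Several members varied more between clutches of a group than most genes did. The biological coefficient of variation of edgeR, which measures the spread between libraries of a group beyond counting error, was 1.66 for Sbene_G18208, at the 96.5th percentile of the 10782 genes tested, against a median of 0.597. It was 1.41 for Sbene_G06517 and 1.36 for frizzled-5, at percentiles 91.7 and 90.2. Sbene_G09676 had 1.06, Sbene_G15020 0.794 and Sbene_G09677 0.713, at percentiles 78.4, 64.1 and 59.1. The 3 with the highest coefficients were also scarce, since by mean normalized count Sbene_G06517 stood at percentile 5.7, frizzled-5 at 17 and Sbene_G18208 at 22.8. Sbene_G09676, at percentile 14.1 by mean, was scarcer than frizzled-5 and Sbene_G18208 but had a lower coefficient than either. The part of scarcity in the spread was not tested. The members also ranked differently by group. Sbene_G18208 had an SD of 2.94 log2 CPM in PP and 1.19 in LL, while Sbene_G06517 and frizzled-5 had 2.09 and 2.17 in LL. Sbene_G09677 had an SD of 0.42 in LP and 0.60 in PL, below or near the medians of 0.76 and 0.64 over all genes, and 1.57 in LL.

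For each member tested, the genes whose log2 CPM over the 24 libraries was most like it were looked up among the 10781 others. For Sbene_G09677 these were Sbene_G09674 (r = 0.84) and Sbene_G02696 (r = 0.76), and Sbene_G09676 was in place 7 (r = 0.70). Mean normalized counts of Sbene_G09674 were 17.8 (PP), 57.5 (PL), 59.6 (LP) and 152 (LL). Sbene_G09676 was most like Sbene_nc_G10824 (r = 0.78), a gene with a non-coding identifier, and Sbene_G16212 (r = 0.77). Sbene_G06517 was most like Sbene_G14300 (0.79) and Sbene_G21203 (0.78). Sbene_G15020 was most like Sbene_G21113 (0.78) and Sbene_G06634 (0.73). Sbene_G18208 was most like Sbene_G18346 (0.82) and Sbene_G24556 (0.79), and no other member tested came above r = 0.02 with it. Frizzled-5 was most like Sbene_G24021 (0.74) and Sbene_G06695 (0.70), and its closest Notch copy among those tested was Sbene_G09676 (r = 0.31, place 980). Sbene_G13608, which did not pass the filter, was not compared. These r values include the differences between groups and are a description over shared libraries, and the files give these genes no names.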

How the data were processed

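The mRNA of unfertilized oocytes was sequenced in 7 PP, 7 LL, 5 PL and 5 LP libraries. The authors trimmed the reads with Trim Galore, filtered out rRNA with SortMeRNA and mapped with HISAT2, using the planktotrophic genome. They deposited raw HTSeq counts per gene, which are whole numbers. Versions of these tools and the genome build are not given in the sources used here. HTSeq's rows that name no gene held 62.86% to 87.11% of the reads of a library and were left out. Groups were taken from the genotype in the sample titles.

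Counts were tested with edgeR (version 4.0.16, R version 4.3.3; TMM, filterByExpr, quasi-likelihood F-test) in 1 fit of 24 libraries with 4 group means, and P values were adjusted over the 10782 genes tested. Called genes had an adjusted p under 0.1 (0.05 or less for PP against LL) and a fold change over 1.5. Normalized counts used the median of ratios of DESeq2 (version 1.42.0), and log2 CPM used a prior count of 2. Intervals are 95%. Shares and correlations used permutation tests. The fits were tested on simulated data. No replicates were alike within sampling noise (smallest chi-square per gene 41.3 over 62 pairs). Clutches are separate females according to the study's methods.

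The members and lists were chosen with earlier results of these data known. Named genes are the 7 members and, for each member tested, the 2 genes with the highest r over 24 libraries. The planned lists of pathway genes and cell markers were not used, since no annotation was at hand. Alternatives were DESeq2, the median of ratios, other filters, the label of 2 tech replicates as a covariate, 1 factor by the RUVg method from 1000 empirical control genes (the study used housekeeping genes, not repeated here), a replicate block, other sets of libraries, and each library left out. Summing PP replicates 5 and 6 was chosen after seeing the data.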

Additional observations from a re-analysis of the deposited data

Results flagged for a closer look

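Of 27 sets of member values within a group, 3 held a library whose gap to the nearest other was large against the range of the group. The cut-off for this gap is passed by chance in about 1 set in 20 only where values are normally distributed. Normalized counts here were skewed, with an SD above the mean in each of the 3 sets. The chance rate for such counts is therefore not known, and no excess is read from 3 of 27. PL replicate 2 had a normalized count of 215 for Sbene_G18208, with the next PL library at 6.75. PL replicate 3 had 110 for frizzled-5, with the next at 28.1. PP replicate 3 had 7.86 for Sbene_G09676, with the next at 2.61. PL replicate 2 is also the F1 library with the fewest reads on genes (7489256), and PP replicate 3 the library with the most (43609048). The part of depth in these values was not tested.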

How the results depend on the processing

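For PL against LP the count of members called was 0 under all alternatives run. For LP against LL it was also 0 throughout. Against PP, the members called were 2 with DESeq2, 1 with the RUVg factor and 2 with the replicate block in PL, and 2, 2 and 1 in LP. Against LL, DESeq2 called 1 member in PL. Leaving out 1 library gave 0 to 1 members in PL against PP and in LP against PP. Over all genes, it gave from 76 of 11091 (without PL replicate 4) to 552 of 10729 (without PP replicate 7) in PL against PP. In LP against PP it gave from 106 of 10747 (without PP replicate 1) to 413 of 10729 (without PP replicate 7). For PP against LL, a description here, the count of 4 became 6 with DESeq2, 5 with the label as a covariate, 1 in the fit of the 14 PP and LL libraries alone, 0 in the 11 libraries without the label, and 2 to 4 on leaving out 1 library, with 2 without LL replicate 2 or LL replicate 3. Over all genes, PP against LL had 603 of 10782 called in the main fit, 1119 of 12719 with DESeq2 and 614 of 10782 with the label as a covariate. The fit of 14 libraries had 334 of 9392 and that of 11 had 238 of 9503. Without LL replicate 2 or LL replicate 3 there were 403 of 10702 and 437 of 10691. The RUVg factor gave 276 of 10782 genes in PL against PP and 220 of 10782 in LP against PP. Of 520 recomputed log2 fold changes for 16 results, 498 kept their direction and side of the threshold, 15 passed it and 7 turned. The 16 were the members tested in PL against LP, and those with an unadjusted p under 0.05 by edgeR in another contrast with an F1 cross. None of them had passed the threshold in the main fit. Many alternatives left out a library outside the contrast, which could change little, so the 498 is not a measure of stability. Sbene_G06517 in PL against LP turned to 0.67 with the replicate block and to 0.00 with F1 libraries summed by letter. On leaving out 1 library, PL against LP ranged from -0.92 to 0.28 for Sbene_G06517, from -0.84 to 0.09 for Sbene_G15020 and from -2.47 to 1.88 for Sbene_G18208, and PL against LL from -0.40 to 3.68 for Sbene_G18208. Sbene_G09677 in PL against LL was at 0.03 with the label as a covariate. The causes were not tested. Over all genes, the counts called in PL against LP, PL against PP, PL against LL, LP against PP and LP against LL were 2, 244, 97, 188 and 125, and became 103, 797, 469, 565 and 504 with DESeq2, 2, 4, 2, 18 and 5 with the label as a covariate, 1, 655, 434, 432 and 417 with the replicate block, and 0, 12, 0, 24 and 1 with F1 libraries summed by letter. Of 32 same-numbered pairs of libraries between groups, only 10 had deviations with a correlation over 0.1 (range -0.213 to 0.439, and 3 of 5 for PL with LP). The numbers were not taken to pair clutches.

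For shares of Notch reads, 1 copy (Sbene_G13608) had an exact permutation p under 0.05 with 1 count added or as a log2 ratio to the other copies. Both settings add 1 read, so they are not separate support. The copy's share without an added read had an exact permutation p of 0.222. Leaving out 1 library gave 0 to 1 copies with an exact p under 0.05. On leaving out 1 library the difference of PL minus LP, in percentage points, ranged from -1.46 to 7.24 for Sbene_G15020, from -1.88 to 4.67 for Sbene_G18208, from -0.0624 to 0.538 for Sbene_G06517 and from -0.0137 to 1.46 for Sbene_G09676. No relation between members passed an adjusted p of 0.05 under any alternative, and r of Sbene_G09676 with Sbene_G09677 in F1 ranged from -0.122 (without LP replicate 4) to 0.529. Correlations without the labelled libraries were not run in LL, where 5 libraries remain. Copies with 0 to 12 reads in an F1 library cannot show small differences at this depth.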
